A study of Mus musculus with 4 samples.

Results

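Genes of mesothelial cells and fibroblasts were followed in RNA sequencing libraries of mouse peritoneal macrophages. The genes were chosen by cell type, as 4 genes of mesothelial cells (*Msln*, *Upk3b*, *Wt1* and *Krt19*) and 6 of fibroblasts (*Col1a1*, *Col1a2*, *Col3a1*, *Dcn*, *Sparc* and *Lum*), after an earlier look at the same libraries. Of these 10 genes, 9 were among the 15298 genes analysed, and *Lum* was not analysed here. Since their values were known when they were chosen, the levels of the 9 genes are given as a description. No test against replicates was made, and the intervals given with them cover counting error only.

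The study asked how microcurrent stimulation (MCS), a weak pulsed current passed through pads on the abdomen and back, acts on peritoneal macrophages and their daily rhythm. All mice were female BALB/c mice, 6 weeks old, anesthetized with isoflurane at ZT2, that is 2 h after lights on. The current ran for 15 min in MCS mice, while controls had the same handling with no current. Cells washed out of the peritoneal cavity were sorted by flow cytometry as CD11b-positive, F4/80-positive and Ly6G-negative. The control ZT2 and MCS ZT2 libraries were made from cells taken right after the stimulation, and the control ZT14 and MCS ZT14 libraries from cells taken 12 h later. With a single library for each condition, and no statement of how many mice went into it, the values cannot be checked against replicates.

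The mesothelium is the flat cell layer that lines the peritoneal cavity, and its cells carry both keratins of an epithelium and factors of their mesodermal origin. Beneath it lie fibroblasts, which build and renew the fibrillar collagens and the proteoglycans of the peritoneal wall and the omentum. Macrophages of the cavity float free in its fluid and adhere to this lining, and they take up collagen fragments and secrete matrix proteins of their own, such as fibronectin.

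Levels are given as CPM, read counts scaled to the size of each library as the authors normalized them. Each value was a whole number of reads times the worth of a read in its library, 0.115 CPM in control ZT2, 0.110 CPM in control ZT14, 0.116 CPM in MCS ZT2 and 0.102 CPM in MCS ZT14. The reads recovered in this way totaled 8658191, 9217493, 8365590 and 9953243, in that order. The 9 genes together took 233, 65, 273 and 148 of these reads, which is 26.9, 7.14, 31.7 and 15.1 CPM. They were thus rare transcripts in all 4 libraries, and counting error is large for each of them. The 95% intervals below are exact intervals on the reads (Poisson for a level, conditional binomial for a ratio, Clopper-Pearson for a share). They cover counting error only, for reads that are not independent molecules, and set single libraries side by side.

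The libraries carried the markers of the cell type they are labelled with. All 9 macrophage markers examined had reads in every library, with a summed level of 26230 CPM in control ZT2, 25490 CPM in control ZT14, 25407 CPM in MCS ZT2 and 27995 CPM in MCS ZT14. The most abundant was *Lyz2*, the lysozyme gene of myeloid cells, with 17454, 17605, 17344 and 18847 CPM. It made up most of the sum, and other markers of the list varied more. Picked out after their values were seen, *Mertk* had 188, 97.7, 183 and 117 CPM, and *Gata6* 69.1, 89.0, 80.9 and 117 CPM. Divided by the length of the longest coding transcript, *Lyz2* averaged 13535 CPM per kb and *Dcn*, the highest of the mesothelial and fibroblast genes on this scale, 3.27 CPM per kb. The neutrophil gene *Ly6g*, whose protein was used to remove cells in the sort, was not among the genes analysed.

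The mesothelial genes were taken first. *Msln* encodes mesothelin, a surface glycoprotein of mesothelial cells. It had 1.39 CPM in control ZT2 (12 reads), 0.330 CPM in control ZT14 (3 reads), 2.67 CPM in MCS ZT2 (23 reads) and 0.818 CPM in MCS ZT14 (8 reads). The level of *Msln* was higher in the ZT2 than in the ZT14 library, 4.21-fold in control (95% interval 1.13 to 23.2) and 3.26-fold in MCS (95% interval 1.41 to 8.43). At ZT14 the ratio of MCS to control was 2.48, with an interval from 0.596 to 14.5 that includes equal levels. *Upk3b*, a uroplakin made by mesothelium as well as urothelium, had 2.54 CPM in control ZT2 (22 reads), 0.659 CPM in control ZT14 (6 reads), 2.55 CPM in MCS ZT2 (22 reads) and 1.0 CPM in MCS ZT14 (10 reads). The ZT2 libraries were alike for *Upk3b* and both lay above the ZT14 libraries, 3.85-fold in control (95% interval 1.52 to 11.6) and 2.50-fold in MCS (95% interval 1.13 to 5.90).

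*Krt19*, a keratin of simple epithelia, had 2.66 CPM in control ZT2 (23 reads), 0.989 CPM in control ZT14 (9 reads), 3.02 CPM in MCS ZT2 (26 reads) and 1.74 CPM in MCS ZT14 (17 reads). Its order of libraries was that of *Msln*, but in MCS the interval of the ratio of ZT2 to ZT14, 1.74, included equal levels (95% interval 0.906 to 3.41). *Wt1*, the transcription factor of the developing mesothelium, had 0.693 CPM in control ZT2 (6 reads), 0.549 CPM in control ZT14 (5 reads), 0.580 CPM in MCS ZT2 (5 reads) and 0.511 CPM in MCS ZT14 (5 reads). For *Wt1* the libraries lay close together, and the interval of the ratio included equal levels in each of the 4 comparisons made.

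Summed over the 4 mesothelial genes, the level was 7.28 CPM in control ZT2 (63 reads), 2.53 CPM in control ZT14 (23 reads), 8.82 CPM in MCS ZT2 (76 reads) and 4.09 CPM in MCS ZT14 (40 reads). The sum was higher at ZT2 than at ZT14 by 2.88-fold in control (95% interval 1.76 to 4.87) and by 2.16-fold in MCS (95% interval 1.45 to 3.25). MCS and control were closer to each other, with a ratio of 1.62 at ZT14 (95% interval 0.946 to 2.83) and a ratio of 1.21 for the ZT2 libraries (95% interval 0.856 to 1.72). In such bulk samples, fewer cells of a type and less RNA per cell cannot be told apart. Which cells gave these reads was not tested.

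Among the fibroblast genes, *Col1a1* and *Col1a2* encode the alpha chains of type I collagen, and *Col3a1* that of type III collagen, which forms fibrils together with it. *Col1a1* had 2.19 CPM in control ZT2 (19 reads), 0.439 CPM in control ZT14 (4 reads), 3.48 CPM in MCS ZT2 (30 reads) and 1.33 CPM in MCS ZT14 (13 reads). *Col1a2* had 2.54 CPM in control ZT2 (22 reads), 0.330 CPM in control ZT14 (3 reads), 1.86 CPM in MCS ZT2 (16 reads) and 1.74 CPM in MCS ZT14 (17 reads). *Col3a1* had 2.89 CPM in control ZT2 (25 reads), 0.439 CPM in control ZT14 (4 reads), 5.22 CPM in MCS ZT2 (45 reads) and 2.76 CPM in MCS ZT14 (27 reads). All 3 collagen genes were lowest in control ZT14, where they had 11 reads together, and for *Col1a2* the other 3 libraries lay close together, from 1.74 to 2.54 CPM.

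For *Col3a1*, MCS ZT14 stood 6.28-fold above control ZT14 (95% interval 2.19 to 24.7), and for *Col1a2* 5.27-fold (95% interval 1.53 to 28.1). *Col1a1* had a ratio of 3.03, and its interval from 0.935 to 12.7 includes equal levels. Without current, the ratio of ZT2 to ZT14 was 4.99 for *Col1a1* (95% interval 1.66 to 20.2), 7.71 for *Col1a2* (95% interval 2.32 to 40.2) and 6.57 for *Col3a1* (95% interval 2.27 to 26.0). Both sets of ratios have control ZT14 as their denominator and are not independent of each other. The ratio of ZT2 to ZT14 within MCS does not use that library, and it was 2.62 for *Col1a1* (95% interval 1.33 to 5.47), 1.07 for *Col1a2* (95% interval 0.505 to 2.25) and 1.89 for *Col3a1* (95% interval 1.15 to 3.17). Right after the stimulation, *Col3a1* was the only one of the 9 genes whose interval lay above equal levels, with 1.81-fold more in MCS ZT2 than in control ZT2 (95% interval 1.09 to 3.08). This was so for 6.52% of all genes with as many reads as the members, and nothing is read from it.

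*Dcn* encodes decorin, a small proteoglycan that binds collagen fibrils. It had 7.85 CPM in control ZT2 (68 reads), 2.86 CPM in control ZT14 (26 reads), 8.58 CPM in MCS ZT2 (74 reads) and 3.68 CPM in MCS ZT14 (36 reads). For *Dcn* the ZT2 library lay above the ZT14 library, 2.75-fold in control (95% interval 1.73 to 4.50) and 2.33-fold in MCS (95% interval 1.55 to 3.58). The intervals of MCS to control included equal levels for *Dcn*, with a ratio of 1.29 at ZT14 (95% interval 0.757 to 2.22) and a ratio of 1.09 for the ZT2 libraries (95% interval 0.776 to 1.54). *Sparc*, a matricellular protein that binds collagen, had 4.16 CPM in control ZT2 (36 reads), 0.549 CPM in control ZT14 (5 reads), 3.71 CPM in MCS ZT2 (32 reads) and 1.53 CPM in MCS ZT14 (15 reads). The ZT2 libraries were again the higher ones, 7.57-fold in control (95% interval 2.96 to 24.7) and 2.42-fold in MCS (95% interval 1.27 to 4.81). At ZT14 the ratio of MCS to control for *Sparc* was 2.79, and its interval from 0.965 to 9.82 includes equal levels.

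**Figure D1:**
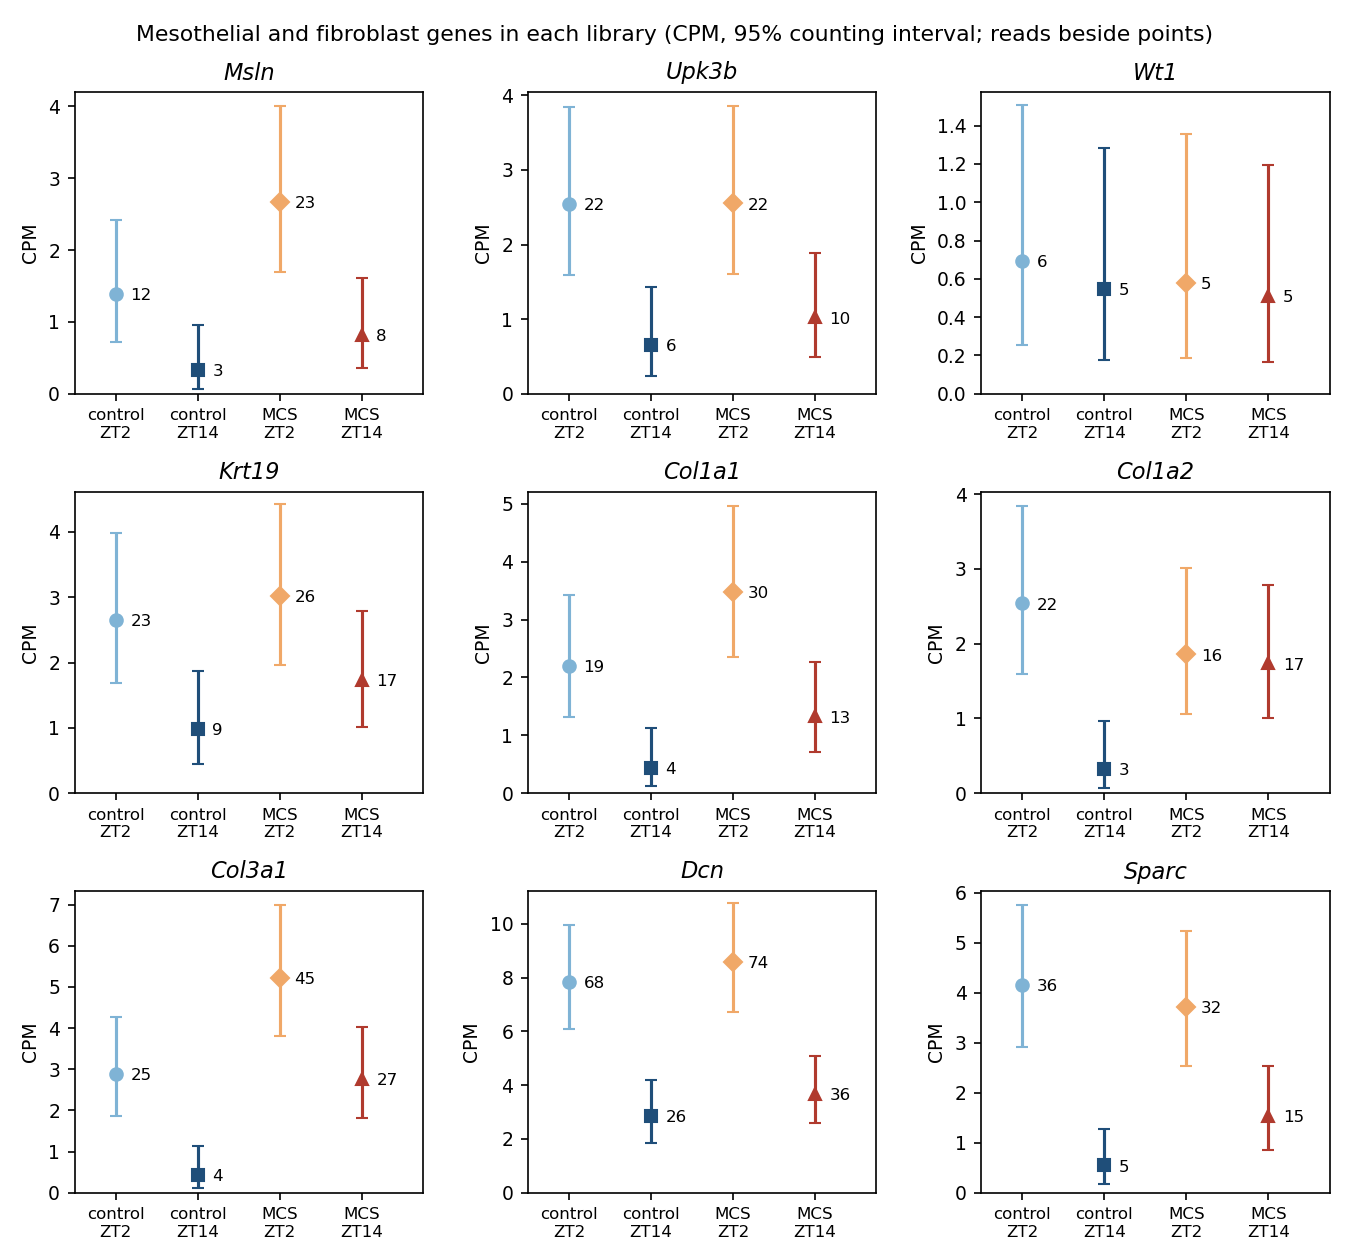
Level in CPM of each of the 9 mesothelial and fibroblast genes in the 4 libraries, 1 point per library with its 95% Poisson counting interval and its number of reads beside it, on axes that start at 0. Control ZT14 is the lowest point in every panel but that of *Wt1*, whose 4 points lie between 0.511 and 0.693 CPM.

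Summed over the 5 fibroblast genes analysed, the level was 19.6 CPM in control ZT2 (170 reads), 4.61 CPM in control ZT14 (42 reads), 22.9 CPM in MCS ZT2 (197 reads) and 11.0 CPM in MCS ZT14 (108 reads). The order was MCS ZT2, control ZT2, MCS ZT14 and control ZT14, as for the mesothelial sum, and the ZT2 libraries did not differ from each other beyond counting error (1.16-fold, 95% interval 0.943 to 1.44). The other 3 intervals lay above equal levels, which is a description of single libraries for genes chosen with their values known. The sum was 4.26-fold higher at ZT2 than at ZT14 in control (95% interval 3.02 to 6.12) and 2.07-fold higher in MCS (95% interval 1.63 to 2.64). At ZT14 it was 2.39-fold higher in MCS than in control (95% interval 1.66 to 3.51). *Dcn* held much of the sum, and without it the level was 11.8 CPM in control ZT2, 1.76 CPM in control ZT14, 14.3 CPM in MCS ZT2 and 7.36 CPM in MCS ZT14. Leaving *Dcn* out moved the ratio at ZT14 to 4.19 (95% interval 2.41 to 7.72) and that between the control time points to 6.70 (95% interval 3.94 to 12.2).

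The make-up of the fibroblast reads is given next. *Dcn* took 40% of them in control ZT2 (95% interval 32.6 to 47.8%), 61.9% in control ZT14 (95% interval 45.6 to 76.4%), 37.6% in MCS ZT2 (95% interval 30.8 to 44.7%) and 33.3% in MCS ZT14 (95% interval 24.6 to 43.1%). The 3 collagen genes took 38.8% in control ZT2 (95% interval 31.5 to 46.6%), 26.2% in control ZT14 (95% interval 13.9 to 42.0%), 46.2% in MCS ZT2 (95% interval 39.1 to 53.4%) and 52.8% in MCS ZT14 (95% interval 42.9 to 62.5%). The share of *Dcn* was highest and that of the collagen genes lowest in control ZT14, and both are parts of the same 42 reads there and 108 reads in MCS ZT14. Type I collagen is a trimer with more alpha 1 than alpha 2 chains. *Col1a1* made up 46.3% of the type I reads in control ZT2 (95% interval 30.7 to 62.6%), 57.1% in control ZT14 (4 of 7 reads), 65.2% in MCS ZT2 (95% interval 49.8 to 78.6%) and 43.3% in MCS ZT14 (95% interval 25.5 to 62.6%). These intervals all overlapped. The mesothelial genes gave 27.0%, 35.4%, 27.8% and 27.0% of the reads of all 9 genes in the same order of libraries, so the balance between both groups was nearly the same in 3 libraries, and the interval of control ZT14 (23.9 to 48.2%) includes those values.

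**Figure D2:**
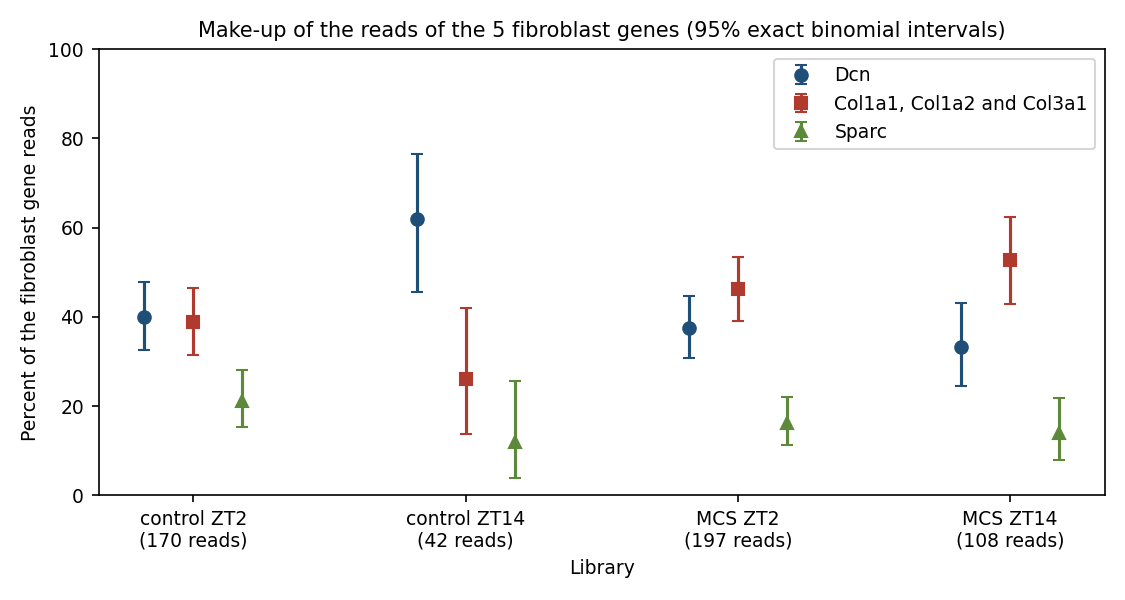
Share of the reads of the 5 fibroblast genes taken by *Dcn* (circles), by the 3 collagen genes (squares) and by *Sparc* (triangles), in percent, in each of the 4 libraries, with 95% Clopper-Pearson intervals. *Dcn* lies above the collagen genes in control ZT14 (61.9% against 26.2%) and below them in MCS ZT14 (33.3% against 52.8%).

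Per kb of the longest coding transcript, the mean over the 4 libraries was 3.27 CPM for *Dcn*, 1.33 CPM for *Krt19*, 1.08 CPM for *Sparc*, 0.601 CPM for *Msln*, 0.508 CPM for *Col3a1* and 0.480 CPM for *Upk3b*. *Col1a1* and *Col1a2* followed with 0.314 and 0.302 CPM per kb, and *Wt1* with 0.189 CPM per kb. This order of the means did not hold in every library. In control ZT14, *Wt1* (0.178 CPM per kb) lay above *Msln* (0.152), *Col3a1* (0.079), *Col1a1* (0.074) and *Col1a2* (0.062). On this scale the type I collagen genes lay close to each other and below *Col3a1*, and no member came near *Fn1* or *P4hb*, which the sorted cells carried in quantity. *Fn1*, which encodes fibronectin, averaged 7026 CPM per kb, and *P4hb*, the beta subunit of the enzyme that hydroxylates collagen prolines, 198 CPM per kb.

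Differences were then counted by a criterion, an absolute log2 ratio beyond 1, taken after adding 0.1 CPM to each value, together with a mean CPM of the compared libraries above 0 on the log2 scale. The thresholds follow the study, while the pseudocount and the use of the mean were chosen here. For MCS against control at ZT14, 5 of the 9 genes had a mean above that limit and 3 of them, *Col1a2*, *Col3a1* and *Sparc*, were past the criterion on the higher side. With a pseudocount of 1 CPM the log2 ratio of *Sparc* was 0.71, which leaves 2 genes. All 3 had less than 1 CPM in control ZT14 and met the limit on the mean through MCS ZT14, so that they had to differ, and nothing is read from this count. *Msln* and *Col1a1* had a log2 ratio beyond 1 but a mean below the limit. Of all genes above the limit 1.84% were, and 6.51% of those with as many reads as the members (from 21 to 204 over the 4 libraries, a range set after the values were seen). The median log2 ratio was 1.41 over the 5 fibroblast genes and 0.66 over the 4 mesothelial genes. It was -0.0042 over all genes and 0.0044 over those with similar reads. For ZT2 against ZT14 in control, 7 of the 9 genes were past the criterion on the higher side (6 with a pseudocount of 1 CPM), beside 2.42% of all genes and 7.74% of those with similar reads. Of these 7 genes all but *Dcn* had less than 1 CPM in control ZT14 and met the limit on the mean through control ZT2, so that they had to differ, and nothing is read from this count. The medians were 2.47 for fibroblast genes, 1.57 for mesothelial genes, 0.02 for all genes and 0.16 for those with similar reads.

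For ZT2 against ZT14 in MCS, 8 genes had a sufficient mean and 5 were past the criterion (*Msln*, *Upk3b*, *Col1a1*, *Dcn* and *Sparc*), beside 3.96% of all genes and 14.4% of those with similar reads. With a pseudocount of 1 CPM, only *Msln* (1.01) and *Dcn* (1.03) kept a log2 ratio beyond 1. *Msln* had less than 1 CPM in MCS ZT14 and met the limit through MCS ZT2, and nothing is read from this count either. The medians were 1.20, 1.0, 0.03 and 0.18, in the same order. For MCS against control at ZT2, none of the 8 genes with a sufficient mean was past the criterion in either direction. Of all genes 2.21% were, and 9.04% of those with similar reads. The medians were 0.13, 0.09, 0.0050 and 0.054, in the same order. By counting intervals, the ratio lay above 1 for 2 of 9 genes for MCS against control at ZT14 and for 1 of 9 at ZT2, where 7.37% and 6.52% of genes with similar reads did so. It lay above 1 for 8 of 9 genes for ZT2 against ZT14 in control and for 6 of 9 in MCS, where 9.42% and 15.9% did so. No interval of a member lay below 1 in any of the 4 comparisons. The genes were chosen with their values known, so nothing is read from these interval counts. Both comparisons with control ZT14 share that library, and their values are set side by side only.

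Control ZT14 was the lowest of the 4 libraries for 8 of the 9 genes, *Wt1* being the exception, which is the case for 23.2% of all genes and for 30.9% of those with similar reads. In the same 8 genes MCS ZT14 came next, an order seen in 9.17% of all genes and in 13.7% of those with similar reads. Much of this order is within counting error. For *Col1a2* and *Krt19* the interval of the ratio of MCS ZT2 to MCS ZT14 included equal levels. For *Msln*, *Upk3b*, *Krt19*, *Col1a1*, *Dcn* and *Sparc* that of MCS ZT14 to control ZT14 did. For *Col3a1*, MCS ZT14 (2.76 CPM) lay just below control ZT2 (2.89 CPM). Since the genes were chosen with their values known, nothing is read from these counts.

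Further genes of both cell types followed the chosen ones in part. Of 12 other mesothelial markers 11 were analysed (*Muc16* was not), and together they had 19.5 CPM in control ZT2, 10.8 CPM in control ZT14, 23.7 CPM in MCS ZT2 and 10.7 CPM in MCS ZT14. Their sum was higher at ZT2 in control (1.81-fold, 95% interval 1.41 to 2.35) and in MCS (2.20-fold, 95% interval 1.73 to 2.82), but MCS and control had equal sums at ZT14 (ratio 0.997, 95% interval 0.750 to 1.33). The most abundant was *Gpm6a*, a membrane glycoprotein, with 5.89, 2.97, 4.87 and 2.25 CPM. *Krt8*, a keratin of simple epithelia, was the only one of them past the criterion for MCS against control at ZT14, on the lower side, with 1.73, 1.76, 4.41 and 0.818 CPM, but the interval of its ratio of 0.465 included equal levels (95% interval 0.172 to 1.15). The ratio of *Krt8* was 2.54 for MCS against control at ZT2 (95% interval 1.37 to 4.98) and 5.39 for ZT2 against ZT14 in MCS (95% interval 2.48 to 13.4). *Krt18*, its usual partner in filaments and named for its likeness to the mesothelial sum, had 2.66, 0.989, 3.71 and 1.74 CPM, the order of *Krt19*.

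Of 14 other fibroblast markers 11 were analysed (*Mfap5*, *Dpt* and *Tcf21* were not), with summed levels of 90.5 CPM in control ZT2, 82.3 CPM in control ZT14, 89.0 CPM in MCS ZT2 and 120 CPM in MCS ZT14. This sum did not have the order of the 5 fibroblast genes, since *Pi16*, a peptidase inhibitor, made up most of it, with 69.9, 68.0, 64.6 and 101 CPM. *Postn*, which encodes the matrix protein periostin, was past the criterion at ZT14, with 3.70, 2.75, 3.02 and 7.36 CPM. *Pdgfra*, a defining receptor of fibroblasts, had 5 reads in MCS ZT2 and 0 reads in the other libraries, where up to 3 reads, between 0.307 and 0.346 CPM, could have been missed. *Pdgfrb*, the receptor shared with pericytes and named after its values were seen, had 3.35, 1.10, 2.09 and 0.716 CPM.

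Other parts of collagen biology were compared in the same way. Of 16 other collagen genes 13 were analysed (*Col2a1*, *Col8a1* and *Col11a1* were not), with 33.4 CPM in control ZT2, 23.9 CPM in control ZT14, 38.9 CPM in MCS ZT2 and 29.2 CPM in MCS ZT14. Their median log2 ratio was 1.09 for ZT2 against ZT14 in control, 1.26 in MCS and 0.52 for MCS against control at ZT14, so the direction was that of the fibrillar collagen genes. The most abundant, *Col18a1* of basement membranes, had 11.4, 7.69, 9.05 and 11.6 CPM and did not have the order of the fibroblast sum. *Col4a1*, also of basement membranes, had 3.0, 0.879, 4.29 and 1.74 CPM, and *Col6a3*, of microfibrils, 0.693, 0, 1.39 and 0.511 CPM. *Col4a1* and *Col6a3*, named after their values were seen, had the order of the fibroblast sum. Of the genes for their partner chains, *Col6a2* (1.39, 0.439, 1.97 and 0.716 CPM) had it too, whereas *Col4a2* (2.89, 3.30, 5.45 and 3.48 CPM) and *Col6a1* (2.43, 0.879, 1.74 and 0.409 CPM) did not. Control ZT14 was lowest and MCS ZT14 next for 5 of the 13 genes.

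The enzymes and chaperones that fold, modify and crosslink collagen had another order of summed levels. Of 17 such genes 16 were analysed (*P4ha3* was not), with 1687 CPM in control ZT2, 1546 CPM in control ZT14, 1431 CPM in MCS ZT2 and 1866 CPM in MCS ZT14. The most abundant was *P4hb*, with 592, 511, 487 and 680 CPM, and none of the list was past the criterion for MCS against control at ZT14. *Serpinh1*, the chaperone specific to procollagen, was named after its values were seen. It had 15 reads in control ZT2, 3 in control ZT14, 11 in MCS ZT2 and 5 in MCS ZT14, and was higher at ZT2 in control by 5.26-fold (95% interval 1.49 to 28.3). For the other comparisons the intervals of *Serpinh1* included equal levels, with ratios of 2.50 for ZT2 against ZT14 in MCS (95% interval 0.799 to 9.16) and 1.55 for MCS against control at ZT14 (95% interval 0.302 to 9.99).

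Of 9 small leucine-rich proteoglycans 8 were analysed (*Lum* was not), with 9.82, 4.17, 11.6 and 5.21 CPM in control ZT2, control ZT14, MCS ZT2 and MCS ZT14, most of it *Dcn*. All 10 collagen receptors were analysed, with 1476, 1301, 1389 and 1591 CPM in that order, nearly all of it the integrin subunit *Itgb1* (1286, 1186, 1178 and 1461 CPM). Of the 4 alpha subunits in the list that pair with it in collagen binding, named after their values were seen, *Itga1* (5.66, 1.87, 5.68 and 2.25 CPM) and *Itga2* (7.28, 2.53, 12.9 and 3.99 CPM) had the order of the fibroblast sum. For *Itga1* control ZT2 and MCS ZT2 had 49 reads each, so their order comes from the scaling alone. *Itga10* (0.693, 1.10, 1.39 and 0.716 CPM) and *Itga11* (0.577, 0.220, 0.116 and 0.102 CPM) did not.

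Of 12 matrix metalloproteinases and their inhibitors 10 were analysed (*Mmp3* and *Timp4* were not), with 1003 CPM in control ZT2, 1059 CPM in control ZT14, 1001 CPM in MCS ZT2 and 928 CPM in MCS ZT14. *Timp2*, an inhibitor, was the most abundant, with 832, 932, 791 and 781 CPM. *Mmp8*, a collagenase of neutrophils, was the only gene of the list past the criterion at ZT14, lower in MCS, with 0.693, 1.65, 5.10 and 0.716 CPM, but the interval of its ratio of 0.434 included equal levels (95% interval 0.150 to 1.13). Its ratio was 7.37 for MCS against control at ZT2 (95% interval 3.13 to 21.2) and 7.13 for ZT2 against ZT14 in MCS (95% interval 3.19 to 18.8). The summed level of this list thus did not have the order of the collagen genes.

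Growth factors that drive fibroblasts had another order. Of 12 TGF-beta and PDGF ligands and receptors 11 were analysed (*Pdgfd* was not), with 1280 CPM in control ZT2, 1545 CPM in control ZT14, 1252 CPM in MCS ZT2 and 1351 CPM in MCS ZT14. *Tgfb2*, a ligand, led the list with 587, 772, 559 and 635 CPM, and control ZT14, the lowest library for the collagen genes, was its highest. *Pdgfa*, a ligand of the receptor encoded by *Pdgfra* and named after its values were seen, had 1.27, 3.30, 0.928 and 3.37 CPM, higher at ZT14 in both arms. Of 10 target genes of TGF-beta 8 were analysed (*Ccn1* and *Ccn2* were not), with 61885, 57286, 56886 and 59232 CPM in control ZT2, control ZT14, MCS ZT2 and MCS ZT14. *Fn1* made up most of this sum, and *Postn* was the only target past the criterion at ZT14.

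Markers of other cell types were measured beside these results, and their part in the result was not tested. The gene said to lead a list is the one with the highest mean over the 4 libraries. For smooth muscle and pericytes, 7 of 8 genes were analysed (*Rgs5* was not), with 5.43 CPM in control ZT2, 3.73 CPM in control ZT14, 5.80 CPM in MCS ZT2 and 5.21 CPM in MCS ZT14, led by *Acta2* with 1.73, 1.65, 2.90 and 2.35 CPM. For endothelium, 5 of 7 genes were analysed (*Cldn5* and *Emcn* were not), with 2.43, 1.87, 3.25 and 1.33 CPM, led by *Tek*, and *Cdh5* had 0 reads in both ZT14 libraries. For adipocytes, 2 of 6 genes were analysed (*Adipoq*, *Cidec*, *Lep* and *Cfd* were not), with 7, 0, 3 and 9 reads, led by *Retn*. Epithelial genes, 4 of 5 analysed (*Krt20* was not), had 9.93, 8.24, 10.6 and 6.75 CPM, most of it *Epcam* with 7.74, 7.25, 6.84 and 5.73 CPM. Hepatocyte genes, all 7 analysed, had 72.4, 57.8, 58.2 and 64.5 CPM, led by *Alb*. Among these 5 lists the smooth muscle sum had the order of the fibroblast sum, but none of its intervals lay apart from equal levels (1.40-fold for MCS against control at ZT14, 95% interval 0.887 to 2.22). Adipocyte intervals lay above equal levels for MCS against control at ZT14 (from 1.84) and ZT2 against ZT14 in control (from 1.52). In MCS, ZT2 exceeded ZT14 for endothelial (2.44-fold, 1.22 to 5.14) and epithelial sums (1.56-fold, 1.13 to 2.18). The hepatocyte sum was higher at ZT2 than at ZT14 in control (1.25-fold, 1.11 to 1.41). Between the ZT2 libraries, this sum was lower in MCS than in control (0.804-fold, 0.714 to 0.906). For ZT2 against ZT14 in MCS, its interval included equal levels.

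Lymphoid and mast cell genes were examined next. T and natural killer cell genes, 5 of 6 analysed (*Trac* was not), had 28.6 CPM in control ZT2, 16.1 CPM in control ZT14, 34.1 CPM in MCS ZT2 and 21.6 CPM in MCS ZT14, led by *Cd3e* with 8.89, 4.72, 11.0 and 6.54 CPM. This was the order of the mesothelial and fibroblast sums, and control ZT14 was lowest for all 5 genes. The sum was 1.34-fold higher in MCS than in control at ZT14 (95% interval 1.08 to 1.66), and higher at ZT2 than at ZT14 by 1.77-fold in control (95% interval 1.44 to 2.19) and by 1.58-fold in MCS (95% interval 1.32 to 1.90). Mast cell genes, all 6 analysed and led by *Cma1* (517, 339, 610 and 304 CPM), had 1818, 1183, 2240 and 952 CPM. They shared the higher levels at ZT2, 1.54-fold in control (95% interval 1.5 to 1.58) and 2.35-fold in MCS (95% interval 2.30 to 2.41). At ZT14, however, mast cell genes were lower in MCS than in control (0.805-fold, 95% interval 0.783 to 0.827), where the fibroblast genes were higher. B cell genes, 4 of 5 analysed (*Ighm* was not), had 832, 993, 791 and 696 CPM, led by *Cd79a* (321, 369, 316 and 233 CPM), and were highest in control ZT14.

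Blood cells had orders of their own. Neutrophil genes, 7 of 8 analysed, had 19.1, 19.4, 96.3 and 11.2 CPM in control ZT2, control ZT14, MCS ZT2 and MCS ZT14, led by *S100a9* (6.70, 9.23, 33.5 and 1.23 CPM). *S100a9* was past the criterion at ZT14 on the lower side, whereas *Retnlg* was past the criterion at ZT14 on the higher side (2.31, 2.20, 7.19 and 5.93 CPM). Eosinophil genes, 2 of 5 analysed (*Epx*, *Prg2* and *Prg3* were not), had 6.58, 1.98, 18 and 48 CPM, led by *Ccr3* (5.31, 1.32, 12.2 and 33.8 CPM) and followed by *Siglecf* (1.27, 0.659, 5.80 and 14.1 CPM). Red blood cell genes, 6 of 10 analysed, had 3.23, 1.32, 36.7 and 112 CPM. *Hbb-b1* (0.693, 0.220, 12.6 and 37.4 CPM) had the highest mean but was the highest gene in none of the libraries. The hemoglobin genes *Hba-a1* (1.62, 0.220, 22.0 and 19.6 CPM) and *Hba-a2* (0, 0, 0 and 49.5 CPM) were past the criterion as well. Eosinophil and red blood cell genes shared with the fibroblast genes the lowest level in control ZT14 and the higher level in MCS at ZT14, but they were lower at ZT2 than at ZT14 in MCS.

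**Figure D3:**
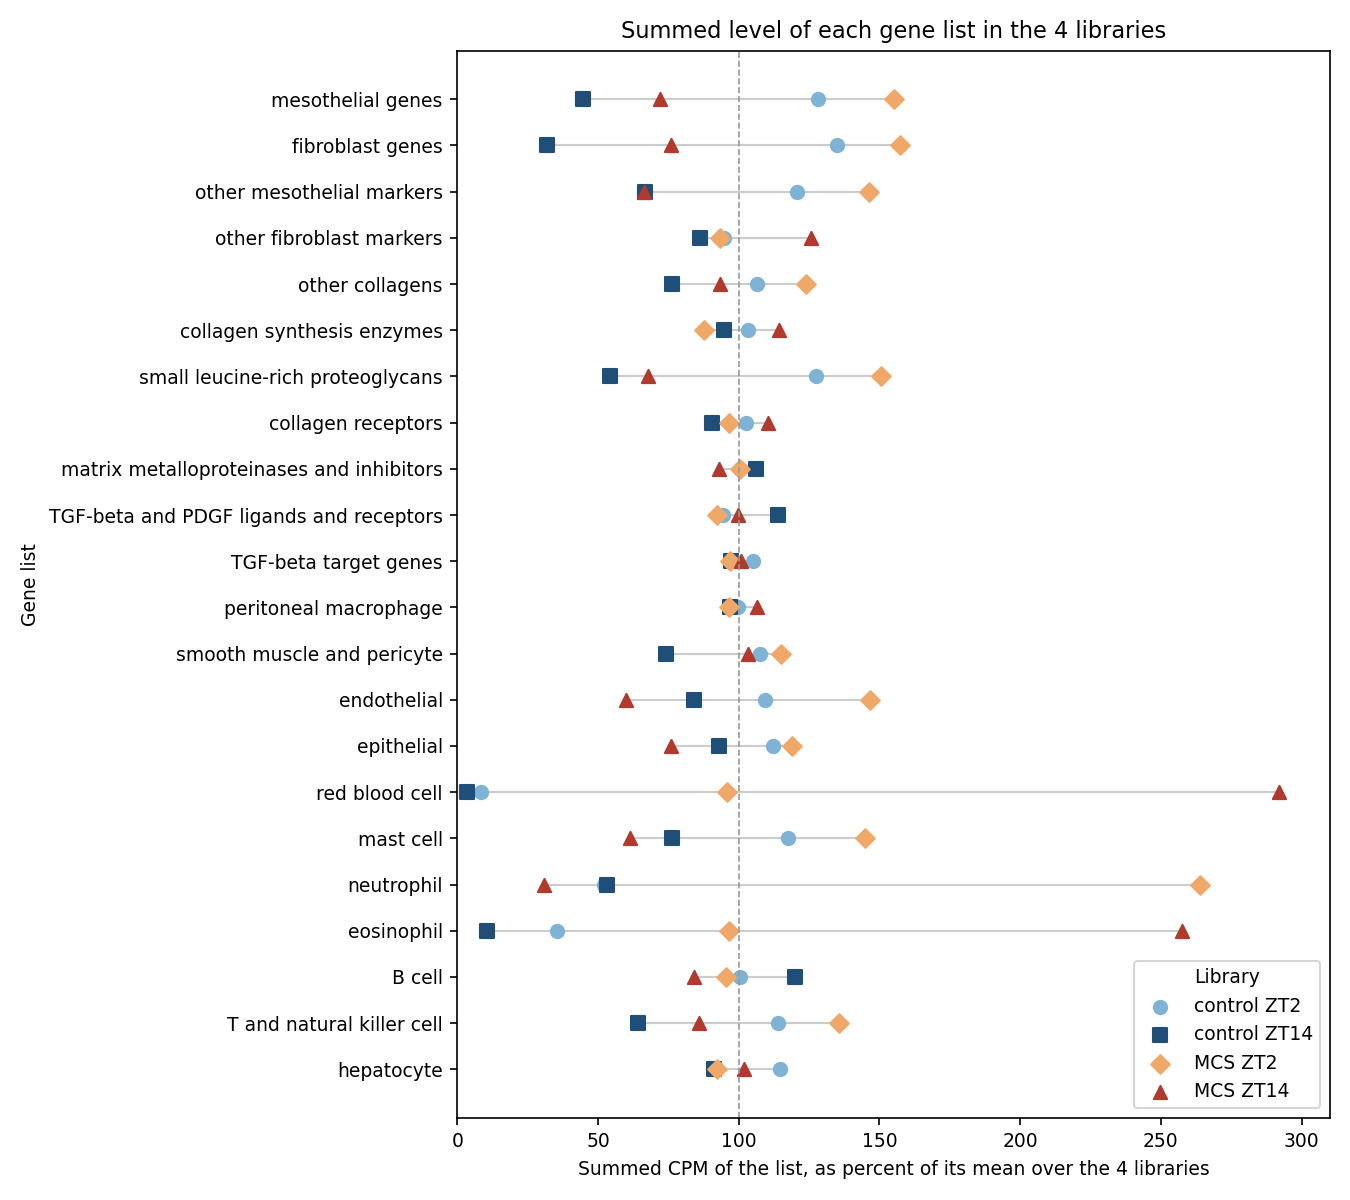
Summed CPM of each gene list in each of the 4 libraries (1 marker per library), as percent of the mean of that list over the 4 libraries, for the lists with at least 10 reads in every library, which leaves out adipocyte genes. The dashed line marks 100%. Fibroblast genes lie at 31.7% in control ZT14 and 157% in MCS ZT2. The macrophage sum, most of it *Lyz2*, lies between 96.7 and 107%, although single macrophage genes varied more. Markers that coincide overlap.

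Apart from the members, the 10 genes nearest to the fibroblast sum were found by the distance between log2 profiles over the 4 libraries, centred on their means, among 12396 other genes with at least 40 reads. The nearest was *Hgf*, hepatocyte growth factor, at a distance of 0.24 on the log2 scale, with 28.5 CPM in control ZT2, 6.48 CPM in control ZT14, 35.4 CPM in MCS ZT2 and 19.2 CPM in MCS ZT14. *Hist1h3b*, *Col4a1*, *Gm13986*, *Cav1*, *Klf11*, *1700071M16Rik*, *Ctsw*, *Met* and *Ston1* followed, the last at 0.48. *Klf11*, a transcription factor, had 26.3, 6.48, 43.7 and 17.7 CPM, and *Met*, a receptor tyrosine kinase, 1.39, 0.439, 2.32 and 0.920 CPM. The 10 genes nearest to the mesothelial sum were *Jdp2*, *Polq*, *Pde7b*, *Krt18*, *Hist1h3g*, *Cav1*, *Col6a2*, *Lama5*, *Ccl5* and *Slc25a27*, at distances from 0.10 to 0.24. *Jdp2*, a transcriptional repressor, had 23.3, 8.79, 28.5 and 12.8 CPM, and the chemokine gene *Ccl5* 18, 6.37, 25.2 and 9.41 CPM. *Cav1*, which encodes the caveolae protein caveolin, was in both sets, with 4.39, 1.32, 5.68 and 2.45 CPM. With 4 libraries, many genes can come this near to a given profile.

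The members lie on 7 chromosomes. In GENCODE on GRCm38, the build that the authors used under the name mm10, *Col3a1* spans chr1:45311538-45349706 on the plus strand, *Wt1* chr2:105126529-105173616 (plus), *Upk3b* chr5:136038496-136046487 (plus) and *Col1a2* chr6:4504814-4541544 (plus). *Dcn* spans chr10:97479609-97518143 (plus), and *Lum*, the member not analysed, is close to it at chr10:97565128-97572703 (plus). On chromosome 11 lie *Sparc* (55394500-55423183, minus), *Col1a1* (94936224-94953042, plus) and *Krt19* (100140810-100148665, minus), and *Msln* spans chr17:25748613-25754378 (minus). The collagen genes are long and finely divided, with 51 exons in the longest coding transcript of *Col1a1*, 52 in that of *Col1a2* and 51 in that of *Col3a1*, compared with 8 for *Dcn*. No other gene analysed overlaps any of the 9 in this annotation.

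RefSeq promoter windows (GRCm38.p6) were at hand for 4 of the 10 genes, *Col1a2*, *Col3a1*, *Sparc* and *Upk3b*, but not for *Msln*, *Wt1*, *Krt19*, *Col1a1*, *Dcn* or *Lum*. The 250 bases before the start were searched on both strands for the TATA box as TATAAA, the CCAAT box by that name's letters, the GC box as GGGCGG, the E-box as CACGTG, which the clock proteins CLOCK and ARNTL bind, and the D-box as TTATGTAA. None of these strings contains another. Of 32851 windows, TATAAA was in 12.4%, CCAAT in 33.8%, GGGCGG in 32.7%, CACGTG in 6.02% and TTATGTAA in 0.819%. The windows of *Col3a1* (chr1:45311288-45311537, plus strand) and *Upk3b* (chr5:136038246-136038495, plus strand) are shown 5′ to 3′ as examples from each cell type that differed between ZT2 and ZT14 in control, with matches in capitals. Those of *Col1a2* and *Sparc* overlap exons of GENCODE transcripts by 127 and 238 bases and are not shown.
*Col3a1*: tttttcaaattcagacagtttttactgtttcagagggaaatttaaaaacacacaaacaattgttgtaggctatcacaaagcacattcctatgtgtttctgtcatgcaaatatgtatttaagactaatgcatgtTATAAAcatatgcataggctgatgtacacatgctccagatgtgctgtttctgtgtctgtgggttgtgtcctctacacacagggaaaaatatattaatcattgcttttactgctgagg
*Upk3b*: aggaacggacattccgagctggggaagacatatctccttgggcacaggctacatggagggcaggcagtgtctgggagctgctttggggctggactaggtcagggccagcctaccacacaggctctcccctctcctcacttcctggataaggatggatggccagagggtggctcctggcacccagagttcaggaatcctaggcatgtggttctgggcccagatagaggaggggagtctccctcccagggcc
The *Col3a1* window held TATAAA from base 117 to base 112 before the start and 35.2% G and C. That of *Upk3b* held none of the 5 strings and 60.8% G and C. The *Col1a2* window held CCAAT from base 109 to base 105 before the start and GGGCGG from 205 to 200 and from 188 to 183, and that of *Sparc* held none of the strings. CACGTG and TTATGTAA were in none of the 4 windows. A match is a description of the sequence, and these windows end at the annotated start.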

How the data were processed

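Total RNA of sorted peritoneal macrophages was depleted of ribosomal RNA and sequenced in 4 libraries. Per the submitters' processing notes, reads were trimmed with Trimmomatic 0.38 and counted per gene with RSEM 1.3.0 and Bowtie 2 on mm10. The authors deposited CPM normalized by edgeR. The annotation, any filter and the strand setting are not given in the sources used here. Division of each column by its smallest step gave whole reads, to 0.05 read, for 100% of values, although RSEM can return fractions, so rounding upstream is possible.

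The members and lists were chosen with earlier results of these data known. Besides the 10 genes, 21 lists were examined, and from each the most abundant gene, up to 4 genes past the criterion for MCS against control at ZT14 and defining markers at 0 were named, as were the 10 genes nearest in profile to each sum, with exceptions marked in the text. No test against replicates was made within a time point or an arm, since there were none. The counting intervals given there set single libraries side by side. Across the 4 libraries, a count test by edgeR (quasi-likelihood, recovered reads, time plus MCS, 1 residual degree of freedom) called 23 of 12404 genes for MCS and 271 for time at an adjusted threshold of 0.05. It was tested on simulated data. Scaling, pseudocounts, minimum expression and the most abundant member were varied. Transcript lengths and coordinates came from GENCODE M21, and promoters from RefSeq. The tools were numpy 2.4.6, scipy 1.17.1, pandas 2.3.3 and matplotlib 3.10.9 under Python 3.11.15, and R 4.3.3 with edgeR 4.0.16 and DESeq2 1.42.0.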

Additional observations from a re-analysis of the deposited data

How the results depend on the processing

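All 40 alternative values of the summed mesothelial and fibroblast ratios kept their direction, and 38 stayed within the counting interval. The exceptions were the fibroblast log2 ratios without *Dcn*, 2.07 in place of 1.26 for MCS against control at ZT14 and 2.74 in place of 2.09 for ZT2 against ZT14 in control, because *Dcn* differed less than the other 4 genes. For the mesothelial sum the log2 ratio lay between 0.53 and 0.69 for MCS against control at ZT14 and between 1.23 and 1.59 for ZT2 against ZT14 in control. In MCS, ZT2 against ZT14 gave 0.95 to 1.3 for the mesothelial and 0.95 to 1.12 for the fibroblast sum. The 180 alternative values for single members kept their sign and stayed within their intervals, but not all kept their side of a log2 ratio of 1. With a pseudocount of 1 CPM in place of 0.1 CPM, it was below 1 for *Sparc* (0.71), *Col1a1* (0.69) and *Msln* (0.45) for MCS against control at ZT14 and for *Krt19* (0.88) and *Msln* (0.84) for ZT2 against ZT14 in control. For ZT2 against ZT14 in MCS, it was below 1 for *Upk3b* (0.81), *Col1a1* (0.94) and *Sparc* (0.90). Rescaling shifted the median log2 ratio of all genes by at most 0.068, and TMM factors recomputed on the recovered reads gave the authors' library sizes. Numbers of genes past the criterion depended on how low values were handled. For MCS against control at ZT14 there were 421 genes, 174 with a pseudocount of 1 CPM, 1615 without a minimum expression and 81 with a log2 mean above 3. At ZT2 the number of 279 became 101, 1434 and 26 in the same order of settings. For ZT2 against ZT14, 450 genes in control became 229, 1567 and 139, and 731 in MCS became 409, 2053 and 197. The count test called 43 genes for MCS without a read filter and 5 with DESeq2 in place of 23, and 81 for time with DESeq2 in place of 271. The cause was not tested. Counting error is largest in control ZT14, where the 9 genes had 65 reads at 7.14 CPM, and that library enters both comparisons in which the fibroblast ratios were highest.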

Other observations

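A few matrix genes had reads mainly in MCS ZT2, taken right after the stimulation, and were picked out after their values were seen. *Aspn*, a small proteoglycan, had 4 reads there and 0 in the other libraries, and *Timp1*, an inhibitor of metalloproteinases, had 5 reads there, 1 in control ZT2 and 0 in both ZT14 libraries. For MCS against control at ZT2 the intervals of *Aspn* (from 0.663) and *Timp1* (0.562 to 238) included equal levels. In the same comparison the neutrophil sum was 5.05-fold higher in MCS (95% interval 4.27 to 6.01), and its part was not tested. *Lox*, the enzyme that crosslinks collagen and elastin, had 4 reads in control ZT2, 7 in control ZT14, 20 in MCS ZT2 and 3 in MCS ZT14. Its ratio of MCS to control at ZT2 was 5.02 (95% interval 1.68 to 20.2). Of the 16 enzymes and chaperones analysed, 10 were lower in MCS than in control at ZT2, among them *Loxl2* (0.641-fold, 95% interval 0.558 to 0.734). Of all 15298 genes 7312 were lower, and nothing is read from this count. The epithelial adhesion gene *Cdh1* had 15, 6, 30 and 7 reads in the same order of libraries. Within MCS it was higher at ZT2 than at ZT14 by 4.86-fold (95% interval 2.09 to 13.1).

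*Mrc1*, which encodes the mannose receptor by which macrophages take up collagen, had 159 CPM in control ZT2, 97.3 CPM in control ZT14, 174 CPM in MCS ZT2 and 110 CPM in MCS ZT14. This is the order of the fibroblast sum at a depth where counting error is small, with a ratio of ZT2 to ZT14 of 1.64 in control (95% interval 1.51 to 1.79). *Mertk*, a receptor for the uptake of dying cells, had 188, 97.7, 183 and 117 CPM in the same order of libraries, highest in control ZT2. *Mrc1* and *Mertk* were picked out after their values were seen.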
